A study of Mus musculus with 6 samples.

Results

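Mesothelial cells of the developing mouse lung are described here. They were taken as the cells that carried the study's own annotation Mesothelial, and they numbered 743 of the 61839 annotated lung cells, or 1.20% (exact 95% binomial interval 1.12 to 1.29%; all intervals given cover counting error only). C57BL/6 mice breathed 21% oxygen (normoxia) or 85% oxygen (hyperoxia) from the day of birth until harvest at postnatal day 3, 7 or 14 (P3, P7, P14), which is a model of the arrested alveolar growth of premature infants. Each of the 6 groups held 6 mice, 36 in all. By the paper, the sexes were unequally represented at P3 and P7 and equally at P14. Sex was not a term in any test here. Cells of the mice were tagged with lipid-anchored sample barcodes, combined in 5 pools and run as 6 single-cell RNA libraries, so every mouse is a separate animal and serves as the replicate. Dams were rotated between the oxygen levels. P14 mice shared no pool with P3 mice, so age at P14 and pool cannot be told apart. Both oxygen levels were present in every pool when all 36 mice are counted.

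The mesothelium is a sheet of flat epithelial cells of mesodermal origin that covers the lung as the visceral pleura. It secretes lubricants into the pleural space, lays down and modifies the matrix beneath it, and during lung development supplies growth factors, among them Fgf9, to the underlying mesenchyme. Its cells carry both epithelial keratins and mesenchymal genes, and in the adult they divide rarely unless the pleura is injured.

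The mesothelial cells comprised 263 from normoxia and 480 from hyperoxia. They numbered 94 and 159 at P3, 74 and 168 at P7, and 95 and 153 at P14, in normoxia and hyperoxia respectively, with 4 to 58 per mouse (median 18). A mesothelial cell held a median of 10387 UMIs (unique molecular identifiers, each counting 1 captured transcript), against 4462 over all cells, and 3395 genes. No cell barcode was shared between mesothelial cells of different libraries. Gene tests used the summed UMIs of each mouse with at least 10 mesothelial cells, which kept 702 cells of 29 mice: 6 normoxic and 6 hyperoxic mice at P3, 2 and 5 at P7, and 4 and 6 at P14. The 2 normoxic mice at P7 make that age the weakest of the comparisons. Both came from pool P3_P7, so pool P7_1 entered the gene tests with hyperoxic mice only. At P14, normoxic mouse 6 came from pool P14_2 and the other normoxic mice tested from pool P14_1.

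The annotation fitted the levels of Upk3b, Msln and Wt1, which are among the markers given for these cells. Upk3b, a uroplakin of mesothelial surfaces, averaged 1653 ± 291 CPM (SD, n = 29 mice; CPM are UMIs scaled to the same library total in every mouse), 261 times the next highest of the 33 cell types that could be compared. Msln, the surface glycoprotein mesothelin, averaged 5956 ± 832, 14.1 times its level in the next type, alveolar type 1 (AT1) cells. Wt1, the transcription factor of mesothelial lineages, averaged 277 ± 67.0 and was found in 80.8% of the cells. Of 3143 genes at 50 CPM or more, 295 were highest in mesothelial cells and 26 reached 10 times the next type; these included Lrrn4 (101 times), Bnc1 (226 times), Muc16 (29.7 times) and Rspo1 (46.6 times). Nbl1, the remaining marker given, had an average log2 CPM of 8.55 and was not among the 26. These levels describe the cells and carry no test, since the annotation was built from the same genes.

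Markers of other cell types were detected to differing extents. Ptprc, the common leukocyte antigen, had a UMI in 7.54% of mesothelial cells, Cldn5 of endothelium in 9.29%, Tcf21 of fibroblasts in 10.4% and Ager of AT1 cells in 16.4%. Of the other-type marker lists, 3 of 11 fibroblast, 2 of 9 AT2, 2 of 8 AT1 and 1 each of the airway, contractile, endothelial and immune genes had a UMI in over 50% of mesothelial cells. Col1a1, a collagen of fibroblasts, was found in 97.8%. Sftpc, the surfactant gene of alveolar type 2 (AT2) cells, had a UMI in 96.9% of mesothelial cells, and also in 88.9% of the cells of 1 B-cell cluster that should lack it, at median depths of 10387 and 2181 UMIs. It averaged 1778 CPM in mesothelial cells, beside 234561 in an AT2 cluster and a median of 952 over the remaining cell types. The source of these UMIs was not tested. In 11 mesothelial cells, markers of 1 other cell type held over 1% of the UMIs (6 with AT2, 2 with fibroblast and 1 each with contractile, immune, neutrophil and erythroid markers, with 1 cell over the limit for 2 types). Without these 11 cells, 315 genes passed over all ages, 2 at P3, 308 at P14, 24 for the interaction, and 816 and 789 from P3 to P14 in normoxia and hyperoxia, beside 327, 14, 303, 23, 844 and 753 with them, by the tests given below.

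The share of mesothelial cells among all cells of a mouse was compared between oxygen levels at each age. At P3 the share spanned 0.565 to 1.66% with a median of 1.10% in normoxia, and 1.06 to 2.12% with a median of 1.46% in hyperoxia. At P7 it spanned 0.230 to 2.08% (median 0.677%) in normoxia and 0.721 to 3.20% (median 2.23%) in hyperoxia, and at P14 0.269 to 1.07% (median 0.709%) against 0.922 to 3.29% (median 1.59%). The groups overlapped at every age, least at P14. At P14 the mean was 1.76 ± 0.834% in hyperoxia and 0.668 ± 0.355% in normoxia (SD, n = 6 each), 2.64 times as high (two-sided exact permutation test, p = 0.00649, adjusted over the 3 ages 0.0195). At P7 the means were 2.08 ± 1.02% and 0.811 ± 0.655% (exact permutation p = 0.0281, adjusted p = 0.0422; adjusted p = 0.06 with oxygen labels permuted within pools), and at P3 1.54 ± 0.399% and 1.12 ± 0.559% (exact permutation p = 0.152), a difference that did not exceed the spread between mice. The smallest p that 6 mice against 6 allow is 0.00216.

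The higher share at P14 was present in both pools of that age, with means of 2.16% in hyperoxia against 0.855% in normoxia and of 1.36% against 0.480%, and no overlap within either. At P7 it came from 1 pool (2.92% against 0.594%, no overlap), while the other gave 1.24% against 1.03%. At P3 the pools differed in direction, with 1.68% against 0.612% in one and 1.40% against 1.63% in the other. The P7 difference was lost without the hyperoxic mouse that yielded 125 cells in all (difference 1.04 percentage points, exact permutation adjusted p = 0.0942). A test of whether the effect differed between ages found no such difference, with changes of 0.848, 0.674 and -0.174 percentage points and permutation adjusted p of 0.378, 0.378 and 0.828 for P7 over P3, P14 over P3 and P14 over P7. These are shares of recovered cells, in which a gain of one type and a loss of others cannot be told apart.

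**Figure D1:**
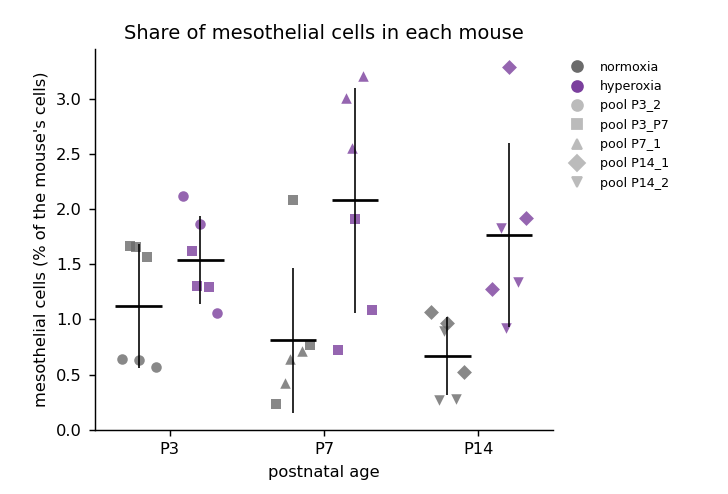
Share of mesothelial cells among all recovered cells (y axis, percent, linear from 0) for each of 36 mice, by age and oxygen level (x axis); the symbol marks the pool, the line the group mean and the bar the SD over 6 mice. At P14 the hyperoxic mice lie between 0.922 and 3.29% and the normoxic mice between 0.269 and 1.07%.

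Depth moved with oxygen at the same age. The median UMIs per mesothelial cell of a mouse averaged 10520 ± 1525 in hyperoxia and 6254 ± 1789 in normoxia at P14 (SD, n = 6 each; exact permutation p = 0.00216, the smallest possible; adjusted p = 0.00649), with no overlap. At P3 and P7 the difference did not pass (10486 against 8841, adjusted p = 0.565; 15592 against 11026, adjusted p = 0.195; exact permutation). Mitochondrial transcripts took 6.81 ± 0.451% of the UMIs in hyperoxia and 4.87 ± 0.654% in normoxia at P14. Gene values below are in CPM. Some comparisons were repeated with each cell thinned to 1000 or 4000 UMIs, shallower cells left out.

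Proliferation was read from Mki67 and Top2a, genes of dividing cells, after every cell was thinned to 1000 UMIs (9 cells were shallower). The share of cells with a UMI of either averaged 12.2% in normoxia and 14.2% in hyperoxia at P3, 8.95% and 2.20% at P7, and 1.71% and 3.08% at P14. None of these differences passed (exact permutation adjusted p = 0.758, 0.227 and 0.758). Without thinning the shares were 24.9 and 33.4% at P3, 24.5 and 23.3% at P7, and 7.60 and 10.7% at P14. The authors' cell cycle phase calls, from cells that were not thinned, were not tested. Cells called G2M averaged 24.3 and 24.2% at P3, 9.92 and 11.8% at P7, and 1.97 and 9.01% at P14, in normoxia and hyperoxia. Cells called S averaged 14.6 and 28.5%, 16.1 and 20.4%, and 11.6 and 19.6% in the same order.

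Over all ages together, Timp1, Timp3 and several antioxidant genes were higher in hyperoxic mesothelial cells, and Fmo2 and several elastic fibre genes were lower. With age as a covariate, 327 of 5222 tested genes changed (6.26%; edgeR's quasi-likelihood test, Benjamini-Hochberg adjusted p below 0.05), 152 higher (2.91%) and 175 lower (3.35%) in hyperoxia. Without pool P14_1 the count was 71, and without the age covariate 75. With cells thinned to 4000 and 1000 UMIs, 1277 and 284 genes could be tested, of which 86 and 12 passed. Of the 327 genes, 162 and 42 were still tested there, 161 and 42 kept their sign, and 65 and 12 kept their call. The protease inhibitors Timp1 and Timp3 were among the largest increases, and Fmo2, a flavin-containing monooxygenase of the lung, was the largest decrease by the naming rule. The cell markers Msln, Wt1, Upk3b and Nbl1 did not pass, at log2 differences of -0.04, 0.07, -0.13 and -0.07 (edgeR adjusted p 0.377 or higher). Within a list of 20 mesothelial identity genes, 19 were tested, 2 were higher (the keratin Krt18 and Dmkn) and 2 lower (Lrrn4 and the basement membrane protein Fras1), with a median log2 difference of -0.09 beside -0.01 over all genes tested.

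The metalloproteinase inhibitors Timp1 and Timp3 were higher in hyperoxia, and at P14 Timp2 and Reck were lower. Timp1 (chrX:20870166-20874735, GRCm38), a secreted inhibitor of metalloproteinases, spanned 264 to 353 CPM with a median of 333 in the normoxic mice at P3 and 450 to 1062 with a median of 671 in the hyperoxic ones. At P7 its values were 313 and 296 in normoxia and 403, 368, 673, 425 and 461 in hyperoxia, and at P14 they were 210, 157, 201 and 165 in normoxia and 359 to 879 (median 494) in hyperoxia. Hyperoxic mice lay above normoxic mice at all 3 ages, with no overlap at any. The log2 difference was 1.16 ± 0.148 over all ages (SE; edgeR adjusted p = 5.24e-06), 1.20 ± 0.205 at P3 (adjusted p = 0.00339), 0.65 at P7 (adjusted p = 0.788) and 1.64 ± 0.254 at P14 (adjusted p = 8.63e-05).

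Timp3 (chr10:86300372-86349506), the matrix-bound member of the same family, spanned 83 to 348 CPM (median 150) in normoxia and 259 to 549 (median 311) in hyperoxia at P3. At P14 it was at 165, 134, 242 and 138 in normoxia and at 619 to 956 (median 854) in hyperoxia. The groups overlapped at P3 and were far apart at P14, where the log2 difference was 2.30 ± 0.308 (SE; edgeR adjusted p = 1.41e-05); over all ages it was 1.32 ± 0.203 (adjusted p = 0.00016). Timp2 went the other way at P14, from 3399, 3462, 3371 and 2933 CPM in normoxia to 2227 to 2801 (median 2516) in hyperoxia, a log2 difference of -0.43 (edgeR adjusted p = 0.0201). Of the 14 listed protease inhibitors, 11 were tested at P14, where Serpinh1 (the collagen chaperone Hsp47, log2 difference 0.62) was higher as well, and Reck, a membrane-bound inhibitor of metalloproteinases, was lower (-1.27; edgeR adjusted p = 0.00717 and 0.0335). Among the matrix proteases themselves, 10 of 21 were tested over all ages and 13 at P14; none passed, which at shares of 6.26% and 3.99% over all genes says little about so short a list.

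Collagen genes moved in both directions, without a split by collagen type. Over all ages, 15 of 18 listed collagen genes were tested, of which 4 were higher and 4 lower, with a median of -0.10, beside 2.91% higher and 3.35% lower over all genes. The higher ones were Col12a1, a collagen that decorates fibrils, with a log2 difference of 1.07 ± 0.216 (SE; edgeR adjusted p = 0.00251), the basement membrane chains Col4a1 (0.46) and Col4a2 (0.59), and the fibrillar Col5a2 (0.36). Col12a1 was at 20.6, 11.2, 0 and 15.9 CPM in normoxia at P14 and at 28.5 to 66.1 (median 49.6) in hyperoxia, without overlap. The lower ones were the other type IV chains Col4a3 (-0.63) and Col4a4 (-0.57), the fibrillar Col3a1 (-0.42) and Col14a1 (-0.40). At P14, the same 8 genes passed in the same directions, beside 1.78% higher and 2.21% lower over all genes.

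Some genes of the elastic fibre fell. Of 19 listed, 17 were tested over all ages, and 5 were lower and none higher (median -0.08; 3.35% lower over all genes): Eln, which encodes elastin, Fbln5 and Fbln2, fibulins of the fibre, the microfibril protein Mfap2, and Ltbp4, which binds latent TGF-β. Fbln5 was at 483, 459, 674 and 308 CPM in normoxia at P14 and at 143 to 229 (median 218) in hyperoxia. The groups did not overlap, and over all ages its log2 difference was -0.79 ± 0.134 (SE; edgeR adjusted p = 0.000375). Eln was at 9863, 12493, 15086 and 8418 in normoxia at P14 and at 4161 to 9951 (median 6341) in hyperoxia, a log2 difference of -0.87 (edgeR adjusted p = 0.00564), with some overlap. Basement membrane genes other than collagens included 3 that were lower (Nid2, Npnt, Fras1) and none higher among 12 tested, beside 3.35% lower over all genes. The summed level of a list of fibroblast markers, which holds Col14a1 and Npnt, was also lower at P14, at 903 to 1348 CPM in hyperoxia against 1454 to 1631 in normoxia; its part in these matrix values was not tested.

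**Figure D2:**
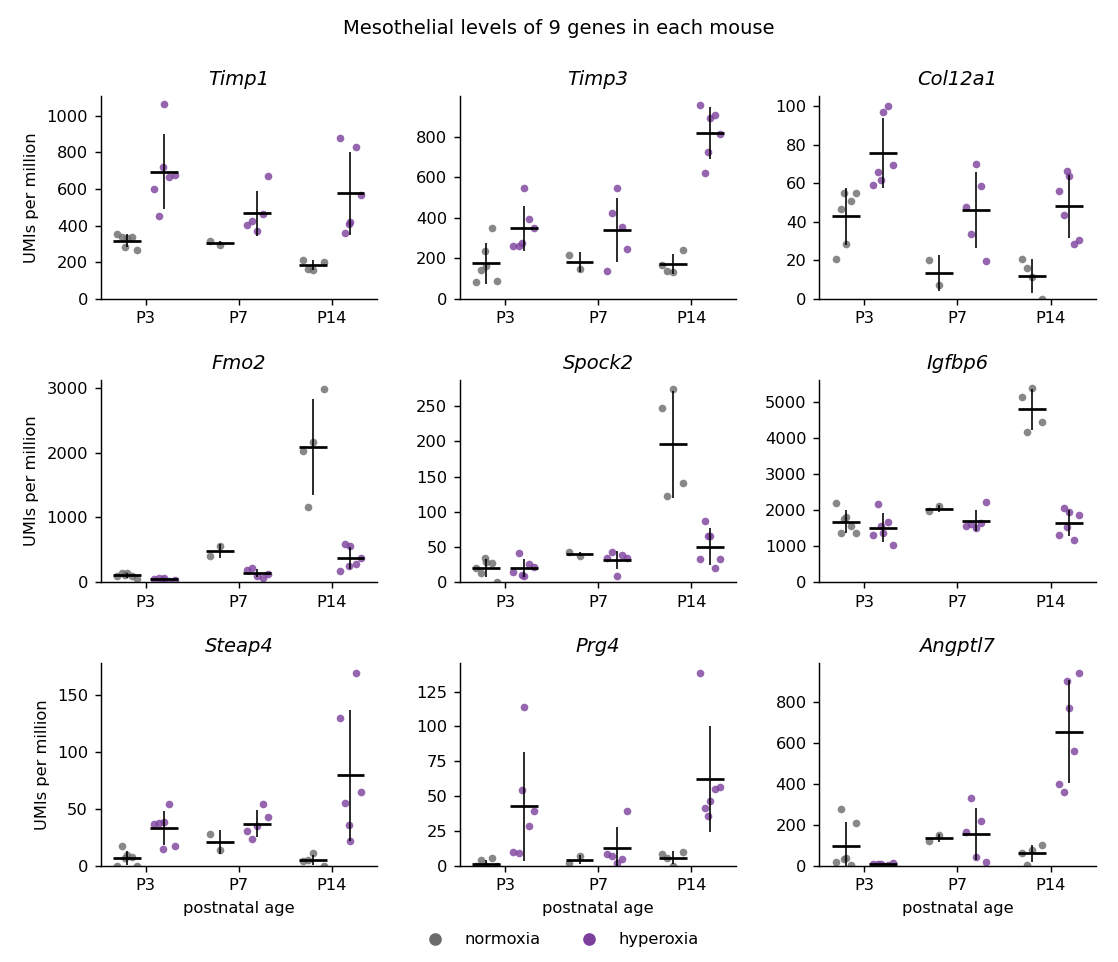
CPM (y axes, linear) of 9 genes in each mouse with at least 10 mesothelial cells, by age and oxygen level (x axes); lines are group means and bars SD. Timp1, Timp3 and Col12a1 lie higher in hyperoxia at P14, and Fmo2, Spock2 and Igfbp6 lower, while Angptl7 is higher in hyperoxia at P14 and not at P3.

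Other secreted and enzymatic genes were changed over all ages. Steap4, a metalloreductase, was at 4.13, 11.2, 0 and 5.31 CPM in normoxia at P14 and at 22.1 to 169 (median 59.8) in hyperoxia; the groups did not overlap, and its log2 difference over all ages was 2.00 ± 0.377 (SE; edgeR adjusted p = 0.00117). Plac8 (1.80), the prostaglandin synthase Ptgs2 (1.32), Renbp (1.23), Dmkn (1.18) and the angiopoietin-like Angptl2 (0.90) were higher, at edgeR adjusted p of 0.0136, 0.015, 0.00103, 0.00553 and 0.0063. Plac8 rested partly on single mice, with 543 in 1 hyperoxic mouse at P3 against a group median of 135. Its level was 81.9 CPM in mesothelial cells beside a median of 49.2 over the other cell types and 5738 in monocytes; the part of background in its difference was not tested.

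Fmo2 (chr1:162874317-162898726), which oxidises foreign amines and sulphides, was at 2025, 2164, 2979 and 1169 CPM in normoxia at P14 and at 174 to 585 (median 323) in hyperoxia. At P7 it was at 404 and 565 against 182, 100, 133, 226 and 70.5, and at P3 at 43.9 to 142 (median 107) against 17.2 to 69.3 (median 44.4). The groups were separate at P7 and P14 and overlapped at P3. The log2 difference over all ages was -1.96 ± 0.21 (SE; edgeR adjusted p = 1.37e-07). Myl7 (-1.30), an atrial myosin light chain, the proteoglycans Prelp (-1.23) and Spock2 (-1.12), the glucocorticoid-induced Tsc22d3 (-1.17), the aryl hydrocarbon receptor Ahr (-1.07), Nrde2 (-1.47), Calcoco1 (-0.92) and the chemerin gene Rarres2 (-0.45) were also lower, all at edgeR adjusted p of 0.015 or less. Spock2 no longer passed without 1 of the P14 normoxic mice (replicate 1), nor Calcoco1 without another (replicate 6). Without pool P14_1, the calls of Spock2, Calcoco1, Nrde2, Tsc22d3, Rarres2, Plac8, Angptl2 and Ptgs2 were lost, and without the age covariate those of Spock2, Calcoco1, Prelp, Tsc22d3, Dmkn, Plac8 and Col12a1. Calls were also lost for Calcoco1, Nrde2 and Ptgs2 without pool P14_2, for Ptgs2 and Dmkn without pool P3_P7, for Calcoco1 without pool P3_2, for Ptgs2 without the P7 mice, and for Myl7 and Dmkn with 10 cells from every mouse. Of 24 listed genes of the FGF, EGF and hedgehog pathways, 5 were tested over all ages; the ligands Fgf9 and Fgf18 were lower (log2 differences -0.71 and -0.55; edgeR adjusted p = 0.0136 and 0.0391) and none was higher, beside 6.26% called over all genes. At P14, 10 of the list were tested and none passed.

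Several genes of the oxidant defence rose. Of 30 listed, 22 were tested over all ages, and 8 were higher and none lower, with a median log2 difference of 0.35 beside -0.01 over all genes, of which 2.91% were higher. They were the ferritin chains Fth1 (0.76) and Ftl1 (0.48), the glutathione transferases Gstm1 and Gsta4 (0.43), the peroxidases Prdx1 and Gpx1, mitochondrial superoxide dismutase Sod2 (0.52) and the metallothionein Mt1. Ftl1 spanned 1036 to 1515 CPM in normoxia and 1546 to 1866 in hyperoxia at P3, and was at 928, 889, 825 and 861 against 1259 to 1435 (median 1348) at P14. Hyperoxic values lay above normoxic values without overlap at each age, at an edgeR adjusted p of 0.00016 over all ages. Gsta3, a further glutathione transferase, did the opposite at P14.

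Glycolytic genes, interferon-response genes and p53 targets gave smaller counts. Among 15 tested genes of glycolysis and the hypoxia response, 4 were higher and none lower (Ldha, Pgk1, Pgam1 and Mif; median 0.15; 2.91% higher over all genes), and Ldha, lactate dehydrogenase A, went from 74.3, 55.9, 60.4 and 101 CPM in normoxia to 163 to 338 (median 196) in hyperoxia at P14. Among 14 interferon-response genes, Bst2, Ifitm2, Ifitm3 and B2m were higher and none lower (median 0.31), beside the same share. Among 10 p53 targets, Ccng1 and Bax were higher and Plk2 lower. No gene passed over all ages among 16 of the cell cycle, 17 of protein folding, 20 of TGF-β, BMP and activin signalling, 9 of mesenchymal transition and 8 of cell junctions, lists in which the share of 6.26% over all genes allows few calls.

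At P3, 14 of 7597 tested genes passed (0.184%; edgeR), 12 higher (0.158%) and 2 lower (0.0263%) in hyperoxia, and 7 of them had no overlap between the 6 normoxic and 6 hyperoxic mice, as did 49 (0.645%) of all genes tested. The higher genes included Timp1, Ifitm3, Cd55, Col4a2, Cox6b2, Fth1, Gstm1, Prdx1, Prg4, Rpap3 and Srsf5. Ifitm3, an antiviral membrane protein, spanned 1434 to 2087 CPM (median 1681) in normoxia and 2172 to 4377 (median 3093) in hyperoxia, a log2 difference of 0.98 ± 0.166 (SE; edgeR adjusted p = 0.00339). Gstm1 spanned 11 to 51.9 (median 34) against 51.5 to 120 (median 88.6). Prg4, which encodes the lubricant lubricin, had 3 UMIs over the normoxic mice and 87 over the hyperoxic ones, a ratio of CPM of 15.9 (exact 95% interval 5.27 to 78.6); its call was lost with pool as the block (edgeR adjusted p = 0.0583). The 2 lower genes were the surfactant genes Sftpa1 and Sftpb, which belong to AT2 cells; the Sftpb call was lost with the block. The summed AT2 markers spanned 695 to 15654 CPM (median 3055) in normoxic mice at P3 and 523 to 3371 (median 924) in hyperoxic ones. Without the 11 cells rich in other markers, Sftpa1 stood at a log2 difference of 0.16, and 2 genes passed, Timp1 and Ifitm3; within the single pools 3 and 0 genes passed, on 3 mice against 3. With mice of at least 15 cells, and with cells thinned to 1000 UMIs, Ifitm3 was the 1 gene that passed.

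At P7, edgeR and DESeq2 each called 0 genes of 7597, with 464 genes (6.11%) at an unadjusted edgeR p below 0.05. Leaving out normoxic mouse 3, which leaves 1 mouse in that group, gave 3 calls (Gucy1a1, Adgrg6 and Runx1), leaving out hyperoxic mouse 2 gave 1 (Runx1) and leaving out hyperoxic mouse 4 gave 1 (Fmo2). These names were read after their values were seen.

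At P14, Timp1, Timp3, Steap4, Angptl7 and Vcam1 were higher in hyperoxia, and Igfbp6, Fmo2, Spock2 and the complement genes C2, C4b and Clu lower. Of 7597 genes, 303 passed (3.99%; edgeR), 135 higher (1.78%) and 168 lower (2.21%) in hyperoxia, and 200 of the 303 had no overlap between the 4 normoxic and 6 hyperoxic mice, as did 482 (6.34%) of all genes tested. The comparison used 708768 UMIs in normoxia and 2365651 in hyperoxia. After cells were thinned to 4000 UMIs and shallower cells left out (22 of 86 in normoxia and 14 of 153 in hyperoxia), 2165 genes could be tested and 89 passed. Of the 303 genes, 191 were still tested, all 191 kept their sign and 74 kept their call.

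Angptl7 (chr4:148495183-148500460), an angiopoietin-like secreted protein, and Steap4 showed the largest increases at P14 by the naming rule. Angptl7 was at 61.9, 78.3, 101 and 5.31 CPM in normoxia and at 361 to 940 (median 665) in hyperoxia, a log2 difference of 3.47 ± 0.639 (SE; edgeR adjusted p = 0.000775). Steap4 had the larger difference, 3.76 ± 0.698 (edgeR adjusted p = 0.000855). Both were without overlap between the groups.

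Prg4, Saa3, Vcam1 and Lmcd1 were also higher at P14. Prg4 was at 8.25, 0, 10.1 and 5.31 against 35.6 to 138 (median 50.9; edgeR adjusted p = 0.0222), and Saa3, an acute-phase amyloid protein, at 8.25, 0, 20.1 and 26.6 against 17.2 to 212 (median 111; adjusted p = 0.0317). Vcam1, a leukocyte adhesion receptor, was at 8.25, 0, 0 and 15.9 against 16.2 to 126 (median 49.4; adjusted p = 0.00505). Over all mice, Saa3 averaged 38.6 CPM and Vcam1 24.9 in mesothelial cells, beside 876 and 368 in Col13a1+ fibroblasts. Their medians over the remaining cell types were 8.14 and 4.51, and the part of background in their differences was not tested. Lmcd1 had 3 UMIs in normoxia and 97 in hyperoxia, a ratio of CPM of 9.69 (exact 95% interval 3.22 to 47.8). The Saa3 call was lost when any of the 4 normoxic mice was left out, the Prg4 call in 3 of those 4 cases (replicates 1, 2 and 6) and the Lmcd1 call in 2 (replicates 1 and 2). All 3 were lost within pool P14_1, and Saa3 also by DESeq2 and with cells thinned to 4000 UMIs. Of 14 tested chemokine, cytokine and adhesion genes, 3 were higher and none lower (Vcam1, Ptgs2 and Saa3). The list median was 0.92, beside 0.02 over all genes, of which 1.78% were higher. Members high in the hyperoxic mice could pass the filter through those mice, so this count is not independent of the filter. The summed immune markers spanned 148 to 693 in hyperoxia and 141 to 219 in normoxia, and the neutrophil markers 38.5 to 929 against 30.2 to 79.7; without the 11 cells rich in other markers, 308 genes passed at P14, 294 of them among the 303.

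Immediate early genes also passed at P14, where 6 of 22 tested were higher and none lower, beside 1.78% higher over all genes (Nr4a1, Zfp36, Ier2, Dusp1, Egr1 and Junb; median 0.65). Nr4a1, an orphan nuclear receptor induced within minutes of many stimuli, was at 165, 101, 80.5 and 175 CPM in normoxia and at 265 to 560 (median 465) in hyperoxia, without overlap (log2 difference 1.65, edgeR adjusted p = 0.000156). Of 19 tested genes of protein folding, 3 were higher at P14 (the Hsp90 chaperones Hsp90aa1 and Hsp90ab1 and the co-chaperone Dnajb1), none was lower and 16 did not pass, beside 1.78% higher over all genes.

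Among the decreases at P14, Igfbp6, which binds insulin-like growth factors, was at 5136, 5391, 4448 and 4172 CPM in normoxia and at 1184 to 2058 (median 1702) in hyperoxia. The groups were far apart, with a log2 difference of -1.56 ± 0.167 (SE; edgeR adjusted p = 1.32e-07); at P3 they overlapped, at 1360 to 2200 (median 1659) against 1023 to 2165 (median 1466). Igfbp5 was at 11006, 9680, 7608 and 7939 against 4220 to 7443 (median 6351), again without overlap, and the receptor Igf1r was lower as well (-0.89, edgeR adjusted p = 0.0113). Over all ages, Igfbp5 did not pass (log2 difference -0.11, edgeR adjusted p = 0.659). Spock2, a proteoglycan of the testican family, was at 248, 274, 141 and 122 against 20.4 to 86.8 (median 49.3), and Tsc22d3 at 215, 408, 443 and 271 against 48.6 to 167 (median 59.5). Nrde2 fell from 173, 213, 242 and 106 to 2.94 to 49.1 (median 21.4; log2 difference -3.07, edgeR adjusted p = 2.7e-05), and Wfdc2 by 2.13 on the log2 scale, a call that was lost without 1 normoxic mouse (replicate 3), within pool P14_1 and with cells thinned to 1000 UMIs. Of 11 complement genes, C2, C4b and Clu were lower and the complement inhibitor Cd55 higher, with a median of -0.39, beside 3.99% called over all genes.

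**Figure D3:**
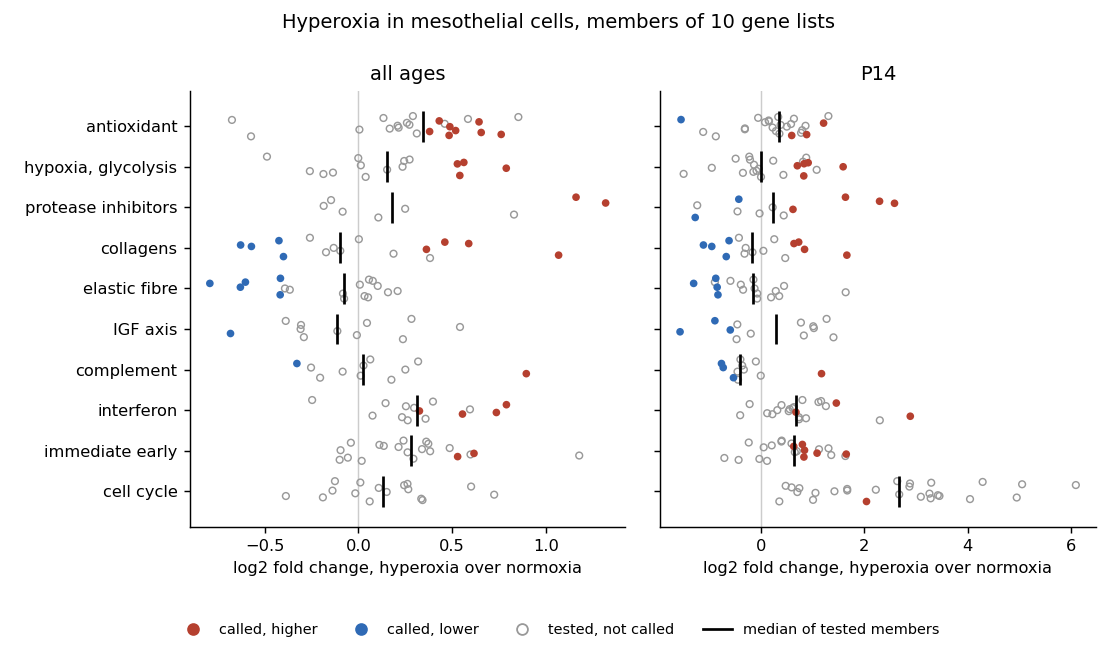
Log2 difference, hyperoxia over normoxia (x axis), of each tested member of 10 gene lists (rows), over all ages and at P14; filled points passed the edgeR test, open points did not, and the short line is the list median. Antioxidant members lie mostly above 0 over all ages, elastic fibre calls are all below 0, and the collagens split 4 to 4.

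The response to hyperoxia at P14 was not that at P3 for 23 of 7597 genes (0.303%; edgeR interaction test), 8 in the positive (0.105%) and 15 in the negative direction (0.197%). Angptl7 had the largest such difference: at P3 it spanned 2.68 to 275 CPM (median 34.3) in normoxia and 0 to 13.1 (median 8.33) in hyperoxia, overlapping and not passing the test, and at P7 it was at 123 and 148 against 164, 44.3, 17, 332 and 218. The interaction of Angptl7 was 6.95 ± 1.05 on the log2 scale (SE; edgeR adjusted p = 0.000351); with mice of at least 15 cells it was 4.76 and did not pass (adjusted p = 0.0949). Igfbp6 (-1.49 ± 0.227, adjusted p = 0.000351), Gsta3 (-2.38) and Kdr (-1.62), the VEGF receptor 2, were lower in hyperoxia at P14 and not at P3. Gsta3 was at 932, 738, 896 and 686 in normoxia at P14 and at 188 to 475 (median 248) in hyperoxia. Kdr was at 582, 447, 674 and 324 against 216 to 305 (median 232), while the remaining endothelial markers summed to 50.3 to 175 against 26.5 to 103.

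Pmepa1, an inhibitor of TGF-β signalling, went the other way, at 45.4, 67.1, 40.3 and 21.3 in normoxia at P14 and 110 to 179 (median 145) in hyperoxia, with an interaction of 1.81 (edgeR adjusted p = 0.00335). Vcam1 (3.77), Icam1 (1.53), Safb (1.69), Nrde2 (-2.85), Il6ra (-1.99), Tmem53 (-2.35) and Gpcpd1 (-1.88) also passed. Of these, Safb lost its call with pool as the block (edgeR adjusted p = 0.0567) and when any of the 4 normoxic P14 mice was left out, Vcam1, Icam1 and Nrde2 without replicate 1, 2 or 3, Il6ra without replicate 1 or 2, Gpcpd1 without replicate 2 or 6, and Tmem53 without replicate 2. Vcam1 also lost its call without the 11 cells rich in other markers (edgeR adjusted p = 0.0605), and Vcam1, Icam1, Nrde2, Il6ra and Gpcpd1 with mice of at least 15 cells.

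The change with age was then described in each oxygen level. From P3 to P14 in normoxia, cell cycle and imprinted growth genes fell in mesothelial cells, and complement and drug-metabolising genes rose. There, 844 of 7597 genes passed (11.1%; edgeR), 434 higher (5.71%) and 410 lower (5.4%) at P14. In hyperoxia 753 passed (9.91%), 384 higher (5.05%) and 369 lower (4.86%). With cells thinned to 1000 UMIs, which left 521 genes to test, 75 and 71 passed. These comparisons share their mice with those between oxygen levels and are given side by side only.

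Promoters of 3 mitotic genes are shown, since most cell cycle genes fell together from P3 to P14. Each run holds the 120 bases before the annotated start (RefSeq, GRCm38.p6, minus strand, written 5′ to 3′); capitals mark CCAAT and TTTGAA on either strand (ATTGG and TTCAAA when reversed).
Ccnb2, chr9:70421555-70421674: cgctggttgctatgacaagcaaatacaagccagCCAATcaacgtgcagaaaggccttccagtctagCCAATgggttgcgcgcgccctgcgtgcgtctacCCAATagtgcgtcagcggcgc
Cdk1, chr10:69352913-69353032: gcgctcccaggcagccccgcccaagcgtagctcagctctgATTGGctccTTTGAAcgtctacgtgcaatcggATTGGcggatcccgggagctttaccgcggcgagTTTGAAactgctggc
Top2a, chr11:99024190-99024309: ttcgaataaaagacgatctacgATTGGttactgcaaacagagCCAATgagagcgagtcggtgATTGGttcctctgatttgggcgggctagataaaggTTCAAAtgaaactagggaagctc
CCAAT is the box bound by NF-Y, and TTTGAA the cell cycle homology region; these matches are letters only, not sites. Of the 23 cell cycle genes that fell in normoxia, 19 had an annotated promoter. In the 250 bases before the start, 17 of these (89.5%) held CCAAT, against 37.5% of all 27025 genes with an annotated promoter. A gene was counted if any of its promoters held the letters, and the 27025 genes were not limited to those tested in mesothelial cells. TTTGAA was held by 8 (42.1%), against 18.3%.

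Of 30 cell cycle genes, 27 were tested, 23 were lower at P14 in normoxia and 18 in hyperoxia, and none was higher in either, beside 5.4% and 4.86% lower over all genes. Because they passed the filter through the P3 mice where they were high, these counts are not independent of the filter. Ccnb2, cyclin B2, had 150 UMIs in the normoxic mice at P3 and 0 at P14, at least 26.1-fold lower in CPM when 3 UMIs over the group are taken as the floor. Top2a, DNA topoisomerase II, had 284 and 1 (a ratio of 148, exact 95% interval 26.4 to 5875), and Cdk1, the mitotic kinase, 133 and 2 (34.7, 9.42 to 290). Outside the list, Hmmr, Spc24 and Ckap2 had 0 UMIs at P14 in normoxia, at least 16.5-fold, 13.7-fold and 8.70-fold lower. The Ckap2 call was lost without normoxic P14 mouse 1 (edgeR adjusted p = 0.0528), and the calls of Ckap2, Hmmr and Top2a with the P3 mice of pool P3_2 only (adjusted p = 0.0833, 0.15 and 0.126). The fitted median of the 27 genes was -4.43 in normoxia, or -3.18 with the 4 genes at 0 set to their bounds, and -1.49 in hyperoxia. In the direct comparison at P14, 1 of the 27 genes passed (Stmn1, higher in hyperoxia), a share of 3.7% beside 3.99% over all genes. The fitted median of the 27 genes there was 2.68, hyperoxia over normoxia, or 2.03 with the 4 genes at 0 set to their bounds. Many had few UMIs in the normoxic mice at P14, so the number of calls does not show that the list was unchanged.

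Imprinted growth genes were lower at P14 for 9 of 13 tested in normoxia (median -1.13; 5.4% lower over all genes) and 6 of 13 in hyperoxia (median -0.61; 4.86% over all genes), and none was higher. Members high at P3 could pass the filter through the P3 mice, so these counts are not independent of the filter. H19, a maternally expressed RNA, went from 311 to 902 CPM (median 480) at P3 to 20.6, 0, 0 and 37.2 at P14 in normoxia, and from 212 to 505 (median 394) to 18.3 to 271 (median 95.4) in hyperoxia. Dlk1, a Notch-related ligand, fell by 4.82 and 4.28 on the log2 scale. Pnoc, the precursor of the neuropeptide nociceptin, spanned 243 to 382 (median 302) at P3 and 0 to 16.0 (median 5.98) at P14 in hyperoxia, with no overlap.

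Complement genes rose with age, 9 of 11 tested in normoxia (median 1.17; 5.71% higher over all genes) and 6 of 11 in hyperoxia (median 0.46; 5.05% over all genes). C2, a convertase subunit, went from 412 to 646 CPM (median 481) at P3 to 1184, 1012, 1268 and 1164 at P14 in normoxia, and from 446 to 561 (median 504) to 602 to 884 (median 658) in hyperoxia. The ages did not overlap at either oxygen level. The interaction between age and oxygen was -0.80 for C2 (edgeR adjusted p = 0.0422).

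Drug-metabolising genes rose for 5 of 8 tested in normoxia (Fmo2, Aldh1a1, Ephx1, Ces1d and Aox3) and 4 of 8 in hyperoxia, beside 5.71% and 5.05% higher over all genes. Fmo2 rose by 4.33 ± 0.322 in normoxia and 2.94 ± 0.309 in hyperoxia on the log2 scale, and Gsta3 by 4.17 ± 0.289 in normoxia. Abca1, a cholesterol exporter, rose by 3.77 and 2.57, and the aldo-keto reductase Akr1b8 by 3.51 and 2.90. Akr1b8 was at 153, 151, 131 and 133 CPM in normoxia at P14, all above the P3 range of 0 to 19.8. The haemoglobin gene Hbb-bs, which passed with the highest value in normoxia (5.36), stood at 2153 in 1 mouse and at 11.2, 20.1 and 5.31 in the others; without that mouse (replicate 1) it was at -0.40, and without the 11 cells at -0.52.

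In hyperoxia, Angptl7 rose by 6.43 ± 0.65 on the log2 scale from P3 to P14 (SE; edgeR adjusted p = 4.16e-09) and Ltbp2, a latent TGF-β binding protein, by 3.81 ± 0.486. Ltbp2 went from 0 to 8.71 (median 5.63) to 34.4 to 127 (median 72.1), without overlap. Of 14 chemokine, cytokine and adhesion genes, 5 were higher at P14 in hyperoxia (Cxcl1, Cxcl10, Cxcl13, Vcam1 and Saa3), and in normoxia none was higher and Il33 and Icam1 were lower. Over all genes, 5.05% were higher in hyperoxia and 5.4% lower in normoxia. Members high in 1 group of mice could pass the filter through that group, so these counts are not independent of the filter.

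**Figure D4:**
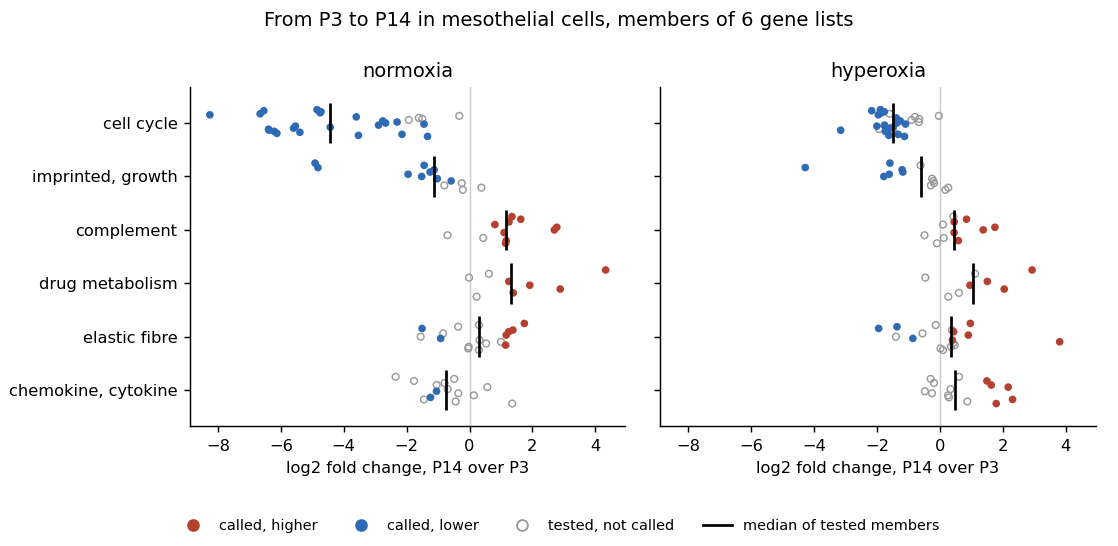
Log2 difference, P14 over P3 (x axis), of each tested member of 6 gene lists in normoxia and in hyperoxia (rows); filled points passed the edgeR test, open points did not, and the short line is the list median. Cell cycle genes lie below 0 in both and imprinted growth genes mostly so, and complement and drug metabolism mostly above 0.

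The response to hyperoxia was set against that of 2 other cell types of the same mice, Col14a1+ fibroblasts (2600 cells) and AT1 cells (2509 cells), by testing the difference of the responses over all ages with the mouse as the unit in 29 mice. The test had no term for a change with age that differs between cell types, and the ages were unequally spread over the oxygen levels. Values given for 1 cell type alone come from fits with age as covariate. Against Col14a1+ fibroblasts, 48 of 7481 genes differed (0.642%; edgeR), 19 with a positive (0.254%) and 29 with a negative difference (0.388%) of the log2 responses, mesothelial cells minus fibroblasts. Angptl2 was higher in hyperoxia in mesothelial cells and at -0.38 in fibroblasts, a difference of 1.23 ± 0.241 (SE; edgeR adjusted p = 0.00652), and Tgfbi, a matrix protein induced by TGF-β, stood at 0.44 in mesothelial cells and -1.31 in fibroblasts (difference 1.57, adjusted p = 0.0137). Prelp went down in mesothelial cells against 0.43 in fibroblasts (difference -1.57, edgeR adjusted p = 0.00215), and Fmo2 against -0.42 (difference -1.29, adjusted p = 0.0112). The p53 targets Cdkn1a and Bax had a larger response in fibroblasts (1.90 and 1.37; differences -1.31 and -0.84, edgeR adjusted p = 0.018 and 0.0137). The difference was negative for Hsd11b1, which activates glucocorticoids (-2.92), Tmem178 (-2.39) and Akr1b8 (-1.81), and positive for Igsf10 (2.46) and the chaperone Hspa1b (1.12). Hsd11b1 and Igsf10 did not pass the low-count filter in mesothelial cells alone, so the mesothelial side of their differences rests on few counts. Timp1 responded in fibroblasts too (2.05), and the difference of -0.68 ± 0.276 did not pass (edgeR adjusted p = 0.352). Timp3 stood at 0.14 in fibroblasts, and the difference of 1.15 ± 0.320 did not pass either (edgeR adjusted p = 0.092).

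Against AT1 cells, 53 of 5798 genes differed (0.914%; edgeR), 14 with a positive (0.241%) and 39 with a negative difference (0.673%); 20 of the 39 encode ribosomal proteins, of which 86 were tested. Timp3 responded by 1.63 ± 0.296 more on the log2 scale in mesothelial cells than in AT1 cells (SE; edgeR adjusted p = 0.00604), where it stood at -0.24, and Col4a2 by 0.76 more (adjusted p = 0.00833). Sema6d (1.68), Rab6b and Clic4 (1.07) were the other named differences upward, and Gsta3 (-2.18), the proteoglycan Fmod (-2.10), Fmo2 (-1.83) and Atf5 (-1.54) those downward. All of these except Clic4 did not pass the low-count filter in AT1 cells alone, so the AT1 side of their differences rests on few counts. Sema6d, Rab6b, Gsta3 and Atf5 did not pass over all ages in mesothelial cells either. After all cells of both types were thinned to 1000 UMIs, 7 genes differed from fibroblasts and 3 from AT1 cells.

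**Figure D5:**
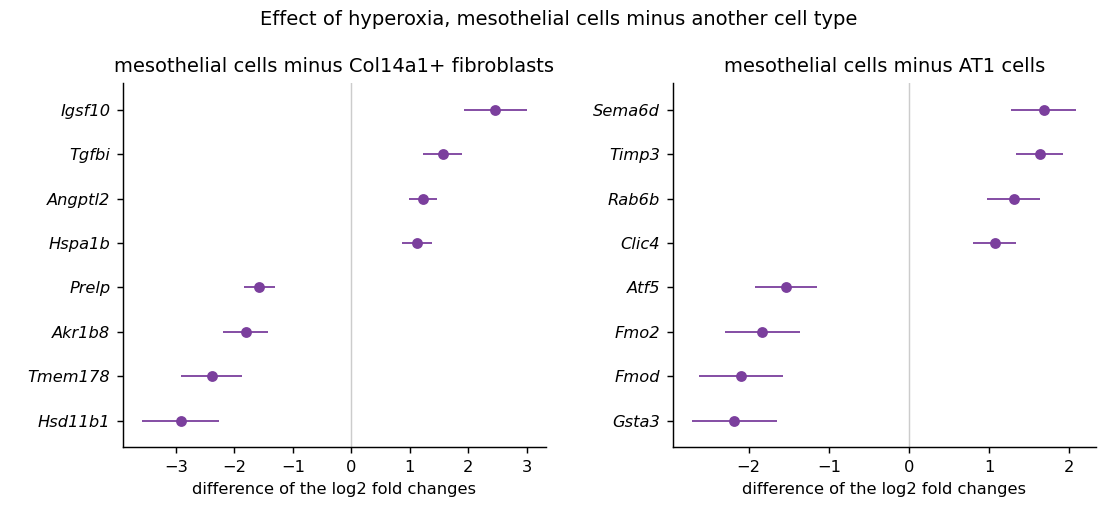
Difference of the log2 response to hyperoxia, mesothelial cells minus Col14a1+ fibroblasts (left) and minus AT1 cells (right), for 8 named genes each (rows); points are estimates and bars SE from 29 mice. Igsf10 and Sema6d have the highest values on the 2 sides, and Hsd11b1 and Gsta3 the lowest. Counts were below the filter in mesothelial cells alone for Hsd11b1 and Igsf10 (left). They were below it in AT1 cells alone for Gsta3, Fmod, Fmo2, Atf5, Rab6b and Sema6d (right).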

How the data were processed

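Lungs of 36 mice were dissociated, tagged by the MULTI-seq method and sequenced on 6 libraries. The authors counted UMIs per gene and cell with Cell Ranger 3.0.2 and deposited the raw counts with an annotation of each cell (mouse, age, oxygen, cell type and the percent of mitochondrial UMIs, a value made by the authors). By the study's methods, the authors kept cells with more than 200 genes and at most 20% mitochondrial UMIs and removed cells with more than 1 sample barcode and contaminating clusters; 5 mesothelial cells lie above that limit (highest 24.9%). The deposited table holds fewer cells than the study states. No doublet caller was run here.

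From the deposited counts, mesothelial UMIs were summed per mouse with at least 10 cells (Python 3.11.15) and scaled by TMM. They were tested with edgeR 4.0.16 in R 4.3.3 (quasi-likelihood, low-count filter, Benjamini-Hochberg adjustment over all genes tested, threshold 0.05). The fit over all ages had age as covariate. Except for the interaction and the cell type comparisons, a call also needed a UMI in at least 10% of the mesothelial cells of a compared group. That criterion changed no count over all ages, took 305 to 303 at P14, and took 849 to 844 from P3 to P14 in normoxia. Per age, interaction and P3-to-P14 results came from 1 fit over 6 groups. Shares used exact permutation tests. DESeq2 1.42.0, filters, cell minimums, thinning, pool as block and left-out mice were alternatives. Genes were named by rule: the given markers, genes the study names for mesothelium (chosen by the study on these samples), the 8 largest changes each way over all ages and 5 elsewhere among genes of average log2 CPM of at least 5 (4 between cell types), and up to 4 members of each list by smallest p. The members and lists were chosen with earlier results of these data known. Tests were checked on simulated counts.

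Depth was 11132429 mesothelial UMIs in all, 91021 to 1036334 per tested mouse. Barcodes recurred between libraries for 0.150 to 0.443% of the smaller library, over 15 library pairs. Gene positions are from GENCODE on GRCm38. Values of 2 genes are not reported here.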

Additional observations from a re-analysis of the deposited data

Results flagged for a closer look

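In 148 groups of 4 to 6 mice that were checked, 10 values stood apart from the others of their group by Dixon's criterion, which chance alone meets in about 1 in 20 groups. They were a mesothelial share of 2.08% in normoxic mouse 2 at P7 and a median of 28116 UMIs per mesothelial cell in hyperoxic mouse 5 at P7. The rest were levels in CPM: Wt1 at 359 in hyperoxic mouse 4 at P3, Igfbp6 at 2216 in hyperoxic mouse 3 at P7, Fbln5 at 322 in normoxic mouse 2 at P3, Plac8 at 543 in hyperoxic mouse 2 at P3 and at 144 in hyperoxic mouse 3 at P7, Myl7 at 297 in hyperoxic mouse 1 at P14, Tsc22d3 at 104 in normoxic mouse 1 at P3 and Spock2 at 9.32 in hyperoxic mouse 2 at P7.

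By the edgeR interaction test, 23 genes responded differently to hyperoxia at P14 and at P3. The named ones, on the log2 scale, were Angptl7 (6.95), Vcam1 (3.77), Pmepa1 (1.81), Safb (1.69) and Icam1 (1.53) upward, and Nrde2 (-2.85), Gsta3 (-2.38), Tmem53 (-2.35), Il6ra (-1.99) and Gpcpd1 (-1.88) downward.

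The effect differed from that in Col14a1+ fibroblasts for 48 genes. The difference of the log2 responses, mesothelial cells minus fibroblasts, was positive for Igsf10 (2.46), Tgfbi (1.57), Angptl2 (1.23) and Hspa1b (1.12) and negative for Hsd11b1 (-2.92), Tmem178 (-2.39), Akr1b8 (-1.81) and Prelp (-1.57). It differed from that in AT1 cells for 53 genes, with Sema6d (1.68), Timp3 (1.63), Rab6b (1.304) and Clic4 (1.07) upward and Gsta3 (-2.18), Fmod (-2.10), Fmo2 (-1.83) and Atf5 (-1.54) downward. Hsd11b1 and Igsf10 were below the low-count filter in mesothelial cells alone, and Gsta3, Fmod, Fmo2, Atf5, Rab6b and Sema6d in AT1 cells alone.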

How the results depend on the processing

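Counts of genes moved by more than 1.5 times under the settings named here. The cause was not tested. In some of the settings fewer genes, cells or mice entered. Over all ages (327), 512 passed with no filter, 12 of 284 tested with cells thinned to 1000 UMIs, and 86 of 1277 tested when thinned to 4000. With no age covariate 75 passed, with 10 cells from every mouse 89, without the pools P14_1 and P14_2 71 and 164, and without the P7 mice 195. At P3 (14), 37 passed by DESeq2, 123 with no filter, 1 with mice of at least 15 cells, 1 thinned to 1000 UMIs (Ifitm3 in both cases), 2 without the 11 cells rich in other markers, and 3 (1810037I17Rik, Grip1 and Xbp1) and 0 within the pools P3_2 and P3_P7. At P7 (0), 37 passed with no filter. At P14 (303), 31 of 521 tested and 89 of 2165 tested passed with cells thinned to 1000 and 4000 UMIs, and 175 within pool P14_1. From P3 to P14, 75 (normoxia) and 71 (hyperoxia) passed when thinned to 1000 UMIs, 394 and 484 with the P3 mice of pool P3_2 only, and 456 in hyperoxia with those of pool P3_P7. For the interaction (23), 62 passed by DESeq2, 170 with no filter and 2 thinned (Angptl7 and Igfbp6). Against fibroblasts (48), 174 passed with no filter and 7 thinned, and against AT1 cells (53), 3 thinned. Thinning to 4000 UMIs, the 11 cells and the within-pool and P7 settings were chosen after seeing the data.

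With 1 mouse left out, counts ranged from 198 to 384 over all ages, and they were 0 or 1 at P7 without a hyperoxic mouse. For the other results, only the 4 normoxic P14 mice were left out in turn. Counts then ranged from 152 to 201 at P14, 538 to 676 in normoxia from P3 to P14 and 6 to 22 for the interaction. At P7, leaving out a normoxic mouse leaves 1 in that group, which is then assumed to vary like the other groups. Over all ages the count was 212 without normoxic P14 mouse 1 and 198 without mouse 6; at P14 it was 152, 172, 194 and 201 without mice 1, 2, 3 and 6; the interaction fell to 13 and 6 without mice 1 and 2, and normoxia to 538 without mouse 1.

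The block was age and pool together, and replicate numbers were not used as a block, since same-numbered mice share no animal. In the gene tests, pool P7_1 held hyperoxic mice only, so it added nothing to the oxygen effect within blocks. Pool P14_2 had normoxic mouse 6 as its only normoxic mouse there. With the block, 359 genes passed over all ages, 20 at P3, 0 at P7, 439 at P14 and 43 for the interaction; the P7 share difference of 1.27 percentage points had an adjusted exact permutation p of 0.06, and without the 125-cell mouse it was 1.04 (0.0942), where the change of the share effect from P7 to P14 reversed to 0.0499 percentage points. The P3 cycling share read from 6 genes reversed to -0.312 percentage points.

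Reversed log2 differences belonged to genes that did not pass or rested on few cells: Crip1 (-0.0114, -0.0586, -0.185, -0.0867, -0.0208, -0.000632 and -0.00935, and -0.0208 to 0.0984 over left-out mice), Igfbp5 (0.0753 and 0.134), Msln (0.0642 and 0.0702), Nbl1 (0.0316, 0.0176, 0.0183, 0.103, 0.00906 and 0.0103), Wt1 (-0.0457, -0.0182, -0.131 and -0.0120, up to 0.119 over left-out mice), Hbb-bs (-0.516 and -0.397, up to 5.76 over left-out mice) and Sftpa1 (0.164). Of the remaining values for named genes, 1435 kept direction and call, 105 lost the call and 1 gained it.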
